A study of Mus musculus with 16 samples.

Results

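The maturation of the wild-type (WT) mouse retina was described from 8 of the 16 arrays of a study of the transcription factor gene Gtf2ird1. The arrays were chosen by title alone: 4 from WT mice of 2 weeks and 4 from WT mice of 4 months. The other 8 came from mice with a null allele of Gtf2ird1, 4 at each age; the labels call the allele BEN-NULL, after another name of the gene, and name no strain, sex, promoter or further allele for any group. Each array was hybridised with total RNA drawn from a retina of its own and numbered as a biological replicate, and no treatment was given. The sources disagree on the older age: it is 4 months by title and extraction protocol but 2 months by the growth protocol, and the group is called 4-month here as a name. Nothing between these 2 ages was sampled. A value is the log2 signal of a transcript cluster, the probe set that stands for a gene on the Affymetrix Mouse Exon 1.0 array, so a difference of 1 is a 2-fold change of signal. Array signals compress true ratios, and genes' signals are ranked against each other only to choose the called genes of highest signal. A difference is the mean of the 4-month WT arrays minus the mean of the 2-week WT arrays, and an adjusted p is that of limma with Benjamini-Hochberg adjustment over 20259 genes. A gene was called when this p was under 0.05.

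At 2 weeks the mouse retina holds all of its cell classes and the eyes have just opened, but photoreceptor outer segments, synapses and the deeper blood vessel layers are still being completed. Rods make up most of the cells, so rod transcripts dominate RNA of the whole tissue. Bipolar, horizontal and amacrine cells relay and shape the light signal, ganglion cells send it to the brain, and Muller glia span the tissue and support it. In RNA of the whole retina, fewer cells of a type and less RNA per cell cannot be told apart.

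The label retina was checked against defining markers. Photoreceptor genes were strongly detected, with mean signals of 11.93 at 2 weeks and 11.97 at 4 months for Crx, the homeodomain factor of rods and cones. The bipolar cell glutamate receptor Grm6 read 9.81 and 9.49, the Muller glia retinoid carrier Rlbp1 10.86 and 10.87, and the GABA-synthesising enzyme Gad1 of amacrine cells 10.35 and 10.18. The ganglion cell factor Pou4f1 read 6.82 and 6.70. Transcripts that should be lacking (Xist in arrays without it and Y-linked genes in arrays with it) read 4.19 to 5.77, which gives the level of a gene that is not expressed. Markers of cornea (Krt12 5.43 and 5.37), fibroblasts (Lum 4.66 and 4.67) and fast muscle (Mylpf 4.76 and 4.80) lay within that range at both ages. Lens did not: Cryaa, the alpha-crystallin of the lens, which the retina expresses too, read 13.09 and 13.04, and the mean of 17 lens genes ran from 7.65 to 9.87 over the 2-week arrays and from 7.26 to 9.61 over the 4-month arrays. The 2 ages thus overlapped in lens signal, while single arrays differed by over 2 log2 units. Other genes of the fibroblast and cornea lists lay above the absent range at 2 weeks: Aspn averaged 6.72 and Wfdc1 read 7.35 to 8.64. The mean of 19 genes of pigment epithelium and melanin ran from 6.78 to 7.44 at 2 weeks and from 6.525 to 6.91 at 4 months. Of these genes 2 were called lower (10.5%), 1 or 2 when single WT arrays were left out. The part of such tissue in the differences was not tested.

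The 2-week WT array of replicate 1 stood apart. It correlated with the other 7 WT arrays at 0.968 to 0.976, against 0.977 to 0.993 among those 7. Xist was present in 2 of the 4 arrays at 2 weeks, those of replicates 1 and 4, and in 1 of the 4 at 4 months, so sex was not balanced. The mean of 4 sex-linked genes, Xist among them, ran from 6.87 to 7.05 in these 3 arrays. It ran from 8.33 to 8.66 in the other WT arrays and from 8.23 to 8.56 in the null arrays. By these means sex was not balanced between WT and null either. Gtf2ird1 itself, which checks the genotype labels, has 4 transcript clusters. Cluster 7007348 read 9.16 ± 0.29 (SD, n = 4) in 2-week WT and 9.39 ± 0.12 (SD, n = 4) in 4-month WT, against 4.71 at either age in null. Clusters 7008286 and 7008402 also lay far lower in null, at 5.02 and 4.77 at 2 weeks. Cluster 7008782, the strongest and so the one that stands for the gene in the test over all genes, read 10.27 at both ages in WT and 10.45 and 10.31 in null, so it shows no loss. With age in WT, 7008402 went from 8.62 to 9.45 (0.84 higher). Its exact permutation p, two-sided, was 0.0286 (no lower value is possible with 4 arrays an age) and 0.114 when adjusted over the 4 clusters. The other 3 differed by 0.23, 0.18 and less than 0.001, with unadjusted exact permutation p of 0.171, 0.343 and 1.

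Between 2 weeks and 4 months, 1861 of 20259 genes were called in WT, which is 9.19% of those tested. Of these, 887 (4.38%) were higher and 974 (4.81%) lower at 4 months. Most changes were modest. The median called rise was 0.49 and the median called fall -0.53; a change of at least 2-fold was reached by 46 called rises and 75 called falls. The median difference of all genes was -0.043, and 4676 genes had an unadjusted p under 0.05. In 1182 genes (5.83%) all 4-month arrays lay above all 2-week arrays and in 1399 (6.91%) all lay below, together 12.7%; of the called genes, 1528 had such separate groups and 333 did not. When each array was centred on its median, 1079 genes were higher and 717 lower, so the share of rises among the calls went from 47.7% to 60.1%. Leaving out 2-week WT replicate 3 gave 1117 calls and leaving out 4-month WT replicate 1 gave 1226. Using the 8 WT arrays alone, without the null arrays in the estimate of spread, gave 855 calls, of which 829 were among the 1861.

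The genes are described below by lists. The percentage in brackets after a count is the share of the list's measured genes, to be read against the 4.38% higher and 4.81% lower of all genes. Where a list had at least 2 calls in a direction, that count is given again if it moved by over 1.5 times when a single array or the 3 WT arrays with Xist were left out, with the 8 WT arrays alone, with median centring or with quantile normalization. A fold is given as a lower bound where at least 3 of the 4 arrays of the dimmer age read no higher than 5.77, the top of the absent range, which was then put in place of each lower signal. No fold is given where the mean of the brighter age lay under it too, which held for the called genes Apln, C1qc, Col3a1, Gfap, Kif11, Mgp, Mki67, Sox11 and Top2a.

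**Figure D1:**
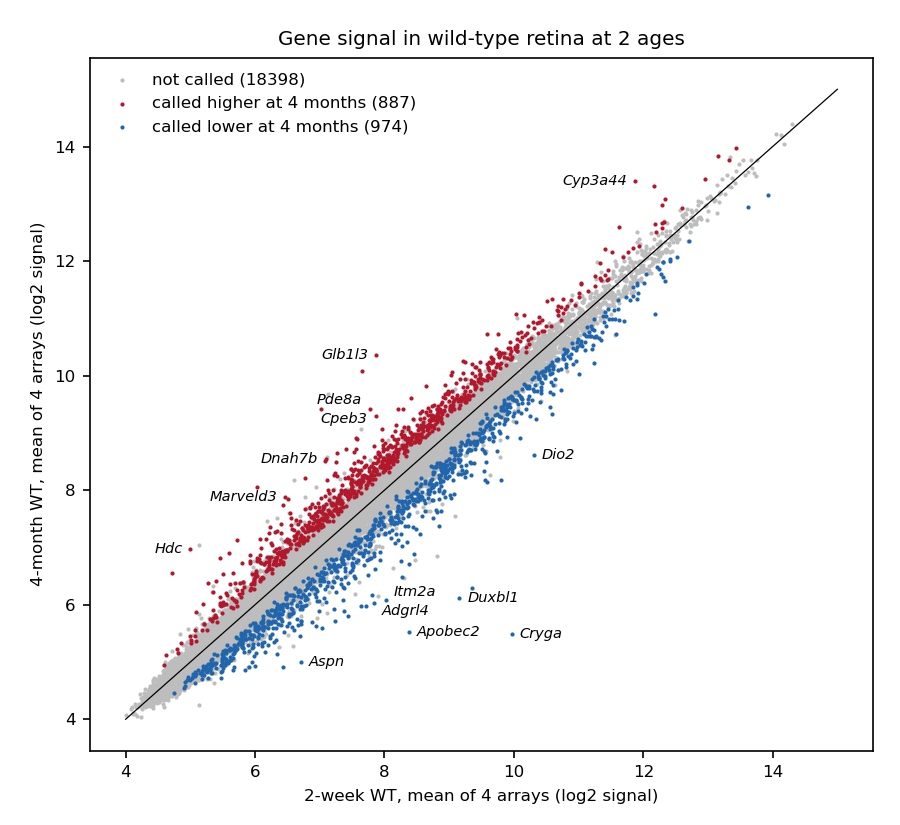
Mean log2 signal of each of the 20259 genes in the 4 WT arrays of 2 weeks (x) and the 4 of 4 months (y), with the diagonal as a line of no change. Genes called higher at 4 months (887) lie above it and genes called lower (974) below; the names mark 7 of the largest rises and 7 of the largest falls, and Cryga, Duxbl1 and Apobec2 lie farthest below the line.

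Among called genes with separate groups, Glb1l3 rose the most. It encodes a member of the beta-galactosidase family. Its signal was 7.11, 8.42, 7.93 and 8.03 at 2 weeks and 10.29, 10.29, 10.50 and 10.37 at 4 months. All older arrays lay well above the younger ones, which spread by over 1 log2 unit themselves. It rose by 2.49 ± 0.23 (SE, 5.61-fold, adjusted p = 1.54e-05), and the change in the null retinas was 2.44. The second was Hdc, histidine decarboxylase, which makes histamine, with 5.20, 4.89, 4.95 and 4.97 at 2 weeks and 5.94, 6.64, 7.42 and 7.86 at 4 months. The 2-week arrays all lay within the range of absent transcripts, and the 4-month arrays were all higher but uneven. Hdc rose by 1.97 ± 0.27 (SE, at least 2.29-fold, adjusted p = 0.000445). Pde8a, a phosphodiesterase that degrades cyclic AMP, read 7.60, 7.68, 7.95 and 7.85 at 2 weeks and 9.57, 9.49, 9.13 and 9.46 at 4 months, with tight groups far apart. It rose by 1.64 ± 0.11 (SE, 3.12-fold, adjusted p = 3.57e-07).

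Syne3, which encodes nesprin-3 of the outer nuclear membrane, had 7.56, 7.58, 7.59 and 7.53 at 2 weeks and 8.87, 8.99, 8.96 and 8.79 at 4 months; the groups were narrow and did not meet, and it rose by 1.34 ± 0.088 (SE, 2.53-fold, adjusted p = 3.11e-07). Cep164, a protein of the appendages by which a centriole docks to the membrane and builds a cilium, read 8.09, 8.45, 8.41 and 8.71 at 2 weeks and 9.67, 9.69, 9.68 and 9.42 at 4 months. Replicate 4 was the lowest of the older arrays and still above every younger one; Cep164 rose by 1.20 ± 0.13 (SE, 2.3-fold, adjusted p = 5.08e-05). Of the genes of the ciliary axoneme, the dynein heavy chain Dnah7b rose by 1.46 ± 0.15 (SE, 2.75-fold, adjusted p = 2.91e-05) and Drc3, of the dynein regulatory complex, rose by 1.34 ± 0.14 (SE, 2.53-fold, adjusted p = 2.91e-05). Drc3 changed by 0.20 in null, a difference between the genotypes that did not pass (adjusted p = 0.105). Cpeb3, an RNA-binding regulator of translation in neurons, rose by 1.43 ± 0.13 (SE, 2.7-fold, adjusted p = 1.34e-05), and its other 2 transcript clusters were higher too, by 0.47 and 0.88. Tcea3, a transcription elongation factor, rose by 1.35 ± 0.14 (SE, at least 2.06-fold, adjusted p = 5.08e-05). The tight junction protein gene Marveld3 rose by 1.41 ± 0.12 (SE, 2.66-fold, adjusted p = 3.83e-06), and Faim, an inhibitor of Fas-induced cell death, rose by 1.32 ± 0.15 (SE, 2.49-fold, adjusted p = 8.57e-05). The long non-coding RNAs Dubr and Lncpint rose by 1.32 and 1.18 (adjusted p = 1.35e-05 and 2.91e-05). Ccdc177, a coiled-coil protein, rose by 1.22 (adjusted p = 0.0119), while its other transcript cluster differed by 0.022. For Cyp3a44, listed at 1.53, the transcript cluster did not lie among those of its own chromosome, so the signal cannot be assigned to the gene with confidence.

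Of the falls, Cryga was the largest. It encodes a gamma-crystallin of lens fibre cells. Its signal was 9.84, 9.80, 10.70 and 9.52 at 2 weeks and 5.10, 5.06, 5.01 and 6.75 at 4 months. At 4 months 3 arrays were at the level of absent transcripts and replicate 4 was higher, and all lay far below the 2-week arrays. Cryga fell by 4.48 ± 0.69 (SE, at least 15.5-fold, adjusted p = 0.000892). The change in null was -5.99. No other of the 17 lens genes was called in WT; the median difference of the list was -0.12, and in null it was -1.77.

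Duxbl1, a double homeobox gene, read 9.53, 8.30, 9.26 and 9.54 at 2 weeks and 6.05, 6.23, 6.18 and 6.02 at 4 months. The groups were far apart. It fell by 3.04 ± 0.20 (SE, 8.22-fold, adjusted p = 3.11e-07). Apobec2, of the cytidine deaminase family, fell by 2.85 ± 0.25 (SE, at least 6.09-fold, adjusted p = 9.21e-06), with all 4-month arrays in the absent range; its other 2 transcript clusters differed by 0.0077 and 0.31. Dio2, the deiodinase that turns the prohormone thyroxine into active triiodothyronine, read 10.70, 9.66, 10.19 and 10.70 at 2 weeks and 8.51, 8.23, 8.69 and 9.05 at 4 months. The lowest younger array was above the highest older one. Dio2 fell by 1.69 ± 0.21 (SE, 3.23-fold, adjusted p = 0.000179). Kcnip2, an accessory subunit of A-type potassium channels, had 7.69, 7.72, 7.94 and 7.90 at 2 weeks and 6.02, 5.99, 6.44 and 6.25 at 4 months, and each group was narrow. It fell by 1.64 ± 0.15 (SE, 3.11-fold, adjusted p = 1.37e-05). Gulo, which carries out the last step of vitamin C synthesis, fell by 1.44 ± 0.23 (SE, 2.71-fold, adjusted p = 0.00133). Wfdc1, a secreted protein with a protease-inhibitor fold, fell by 1.502 ± 0.32 (SE, 2.83-fold, adjusted p = 0.00841).

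Adgrl4, an adhesion G protein-coupled receptor of endothelium, read 7.95, 7.64, 8.20 and 7.56 at 2 weeks and 5.73, 5.71, 6.21 and 6.45 at 4 months. No 4-month array reached the 2-week range. It fell by 1.81 ± 0.17 (SE, 3.51-fold, adjusted p = 2.12e-05). Itm2a, a membrane protein of developing tissues, fell by 1.94 ± 0.21 (SE, 3.83-fold, adjusted p = 5.08e-05). The matrix proteins asporin (Aspn) and periostin (Postn) were lower, with differences of -1.71 and -1.63 (adjusted p = 0.000408 and 0.000505). The T-cell adaptor Grap2, the serine protease Tmprss11e and the oocyte growth factor Bmp15 had differences of -1.57, -1.53 and -1.52, with adjusted p of 4.15e-05, 0.0125 and 0.00733. Ube2l6, the enzyme that passes the interferon-induced modifier ISG15 to its targets, fell by 1.67 ± 0.39 (SE, 3.18-fold, adjusted p = 0.0126), and its other 2 clusters differed by -1.73 and -1.56. Of the 19 measured genes of antigen presentation and the interferon response, none passed the test, and their median was 0.031.

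**Figure D2:**
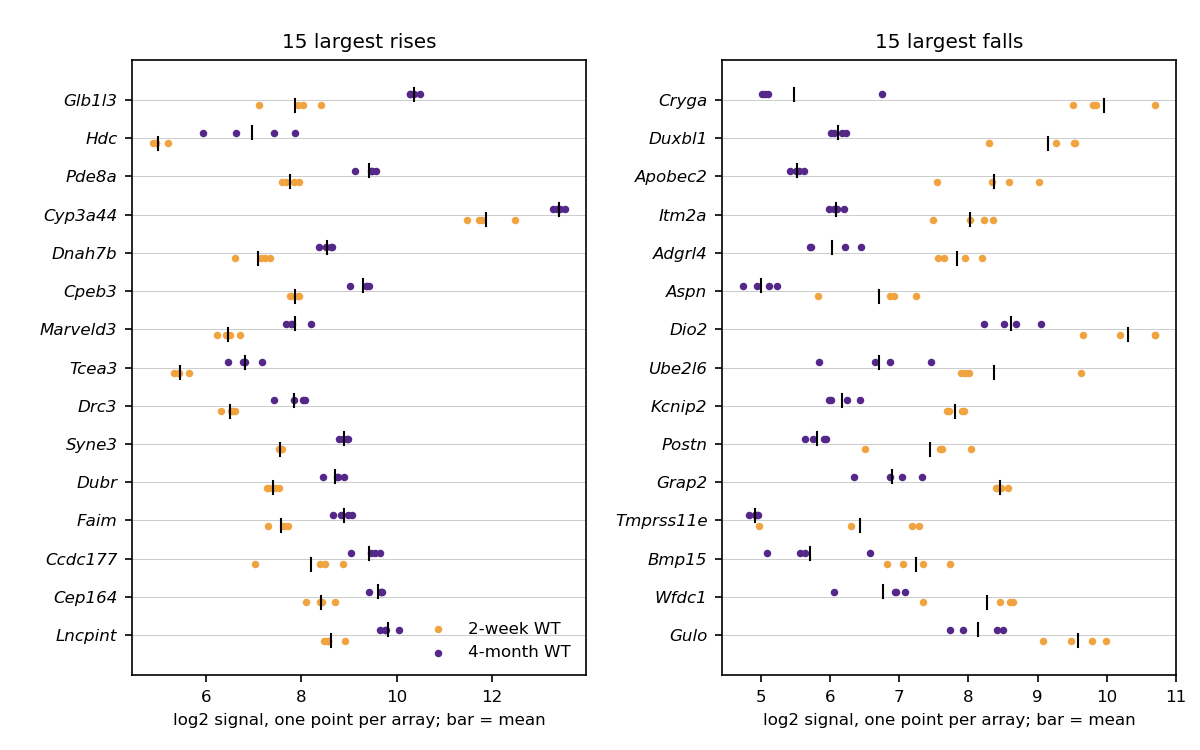
Log2 signal in each WT array for the 15 largest rises (left) and the 15 largest falls (right), 2-week arrays in orange and 4-month arrays in purple, with a bar at the mean of 4. The groups are separate for every gene shown, which the choice of these genes fixed; Cryga has a single 4-month array (6.75) above the other 3.

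The rod genes had small differences of the same sign. Rods capture single photons through a cascade of G protein (transducin), phosphodiesterase and cyclic-nucleotide-gated channel, reset by arrestin and by calcium-dependent guanylate cyclase. All 19 measured genes of the rod list had a positive difference, with a median of 0.21, and 4 were called higher (21.1% against 4.38% of all genes) and none lower. Gnat1, the rod transducin alpha subunit, read 12.36, 12.31, 12.14 and 12.35 at 2 weeks and 12.55, 12.53, 12.57 and 12.65 at 4 months. The older arrays were all above the younger ones. Gnat1 rose by 0.28 ± 0.075 (SE, 1.22-fold, adjusted p = 0.0264). Sag, rod arrestin, rose by 0.31 ± 0.084 (SE, 1.24-fold, adjusted p = 0.0304). Of the recovery enzymes, the guanylate cyclase Gucy2e read 9.98, 10.19, 10.17 and 10.17 at 2 weeks and 10.79, 10.40, 10.64 and 10.84 at 4 months, with replicate 1 of 2 weeks lowest, and rose by 0.54 ± 0.10 (SE, 1.46-fold, adjusted p = 0.00329). Its calcium-sensing activator Guca1a rose by 0.43 ± 0.10 (SE, 1.35-fold, adjusted p = 0.0148). Rod rises numbered 7 without 2-week WT replicate 1 or the 3 arrays with Xist, 2 without 2-week WT replicate 3 or 4-month WT replicate 3 and 1 with the 8 WT arrays alone. Gnat1 had an adjusted p of 0.0955 without 2-week WT replicate 3. Sag had an adjusted p of 0.0901 without 4-month WT replicate 3.

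Cone genes were mixed. Of 15 measured, 1 was called higher (Gucy2e, which is in both lists) and 2 lower (13.3%), with a median of -0.074. Cone falls numbered 4 without 2-week WT replicate 1 or the 3 arrays with Xist. Opn1mw, the green-sensitive cone opsin, read 12.66, 12.67, 12.73 and 12.76 at 2 weeks and 12.39, 12.35, 12.33 and 12.30 at 4 months. The older arrays were all lower, with narrow groups. It fell by 0.36 ± 0.075 (SE, 1.28-fold, adjusted p = 0.00673). The short-wavelength cone opsin Opn1sw, at 12.66, 12.75, 12.89 and 12.73 at 2 weeks and 12.98, 12.76, 12.87 and 12.82 at 4 months, overlapped between the ages and differed by 0.094 ± 0.082 (SE, adjusted p = 0.542). Cone arrestin Arr3 differed by -0.11 ± 0.12 (SE, adjusted p = 0.648) and the cone transducin Gnat2 by -0.21 ± 0.21 (SE, adjusted p = 0.605), neither past the test. Gnat2 read 9.62, 10.53, 10.90 and 10.66 at 2 weeks and 10.11, 10.06, 10.20 and 10.50 at 4 months, where replicate 1 of 2 weeks lay below every older array and the other 3 above them all. Gnat2 passed the test at -0.48 without that array (adjusted p = 0.0286) and at -0.59 without the 3 arrays with Xist (adjusted p = 0.0278). Kcne2, an accessory potassium channel subunit found in cones, fell by 0.63 ± 0.14 (SE, 1.54-fold, adjusted p = 0.00995).

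Few factors that specify photoreceptors passed the test. Crx had 11.77, 12.06, 11.84 and 12.03 at 2 weeks and 12.07, 12.003, 11.87 and 11.94 at 4 months and differed by 0.045 ± 0.095 (SE, adjusted p = 0.83). Nrl, the rod-determining leucine zipper factor, differed by -0.13 ± 0.11 (SE, adjusted p = 0.518), with 2-week replicate 4 high at 11.47. Of 14 factors 1 passed: Pias3, a SUMO ligase that acts on photoreceptor factors, fell by 0.51 ± 0.11 (SE, 1.42-fold, adjusted p = 0.00734). Of 16 genes of the outer segment and axoneme, 1 was lower, Rp1, which binds outer segment microtubules, at -0.40 ± 0.11 (SE, adjusted p = 0.0301). Rp1 had an adjusted p of 0.0876 without 2-week WT replicate 3. Pdc, phosducin, which binds transducin subunits and is among the strongest called falls by signal, fell by 0.51 ± 0.14 (SE, 1.42-fold, adjusted p = 0.0293). Pdc had an adjusted p of 0.0769 without 4-month WT replicate 3.

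In the visual cycle, which regenerates retinal from light-bleached chromophore, 4 of 15 genes were lower (26.7% against 4.81%) and 1 higher. The falls numbered 2 without the 3 arrays with Xist and 1 with the 8 WT arrays alone. The 4 that fell were all retinol dehydrogenases. Rdh8, of rod outer segments, read 11.22, 10.73, 10.95 and 10.95 at 2 weeks and 10.37, 10.41, 10.59 and 10.38 at 4 months; the ages were apart, and Rdh8 fell by 0.52 ± 0.10 (SE, 1.44-fold, adjusted p = 0.00431). Rdh12, of photoreceptor inner segments, fell by 0.38 ± 0.095 (SE, 1.3-fold, adjusted p = 0.0205). Rdh11 fell by 0.51 ± 0.12 (SE, 1.43-fold, adjusted p = 0.0116) and Rdh10 fell by 0.49 ± 0.11 (SE, 1.4-fold, adjusted p = 0.0107). Dhrs3, a retinal reductase of the same enzyme family, went the other way, with 10.10, 9.60, 9.71 and 9.95 at 2 weeks and 10.47, 10.34, 10.57 and 10.20 at 4 months, and rose by 0.56 ± 0.11 (SE, 1.47-fold, adjusted p = 0.00615). Dhrs3's other 2 clusters differed by 0.39 and 0.45. Rdh12 had an adjusted p of 0.0642 without 4-month WT replicate 2. Rpe65, the isomerase of the pigment epithelium, the layer next to the retina, read 6.46 at 2 weeks and 6.57 at 4 months and was not called.

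Photoreceptors signal through ribbon synapses, whose ribbons hold vesicles ready for continuous release. Of 17 ribbon synapse genes 15 had a positive difference and 2 were called higher (11.8%), none lower. Ribbon synapse rises numbered 4 without 2-week WT replicate 1 and 1 with the 8 WT arrays alone. Bsn, the scaffold bassoon that anchors the ribbon, read 7.05, 7.16, 7.20 and 7.33 at 2 weeks and 7.75, 7.70, 7.94 and 7.73 at 4 months and rose by 0.59 ± 0.13 (SE, 1.51-fold, adjusted p = 0.0114). Rims2, an active-zone protein, rose by 0.40 ± 0.078 (SE, 1.32-fold, adjusted p = 0.00478). Of general vesicle release genes the SNARE Vamp2 rose by 0.56 ± 0.10 (SE, 1.48-fold, adjusted p = 0.00262), while Stx1a, the syntaxin of conventional synapses, fell by 0.60 ± 0.13 (SE, 1.51-fold, adjusted p = 0.0074), and the vesicle protein Sv2b fell by 0.38 ± 0.091 (SE, 1.3-fold, adjusted p = 0.0162). In this list of 19, 1 was higher (5.26%) and 2 lower (10.5%). Its falls numbered 0 with the 8 WT arrays alone. Neurod4, a helix-loop-helix factor expressed in photoreceptors and bipolar cells, fell by 0.46 ± 0.089 (SE, 1.37-fold, adjusted p = 0.00453).

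Among interneurons, single markers moved in both directions. Of 16 bipolar cell genes 2 were higher (12.5%) and 3 lower (18.8%). Bipolar cell rises numbered 1 without 2-week WT replicate 3 or 4, 4-month WT replicate 1 or 2 or the 3 arrays with Xist or with the 8 WT arrays alone. Prkca, the protein kinase C that marks rod bipolar cells, read 9.21, 8.61, 8.48 and 8.78 at 2 weeks and 9.66, 9.62, 9.41 and 9.30 at 4 months; the ages did not overlap and Prkca rose by 0.73 ± 0.14 (SE, 1.65-fold, adjusted p = 0.00338). Trpm1, the channel that opens when ON bipolar cells are lit, rose by 0.35 ± 0.088 (SE, 1.27-fold, adjusted p = 0.0216). Scgn (secretagogin, a calcium-binding protein of cone bipolar cells) fell by 0.44 ± 0.088 (SE, 1.36-fold, adjusted p = 0.00551), and the LIM factor Isl1 of ON bipolar, ganglion and starburst amacrine cells fell by 0.51 ± 0.086 (SE, 1.42-fold, adjusted p = 0.00179). The OFF bipolar kainate receptor Grik1 fell by 0.42 ± 0.11 (SE, 1.33-fold, adjusted p = 0.0317). Trpm1 and Grik1 had adjusted p of 0.0717 and 0.0989 without 4-month WT replicate 1.

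Horizontal cells feed back onto photoreceptors. Of 9 markers 2 were lower (22.2%) and 1 higher (11.1%). The count of falls was 1 with the 8 WT arrays alone, with median centring and without any single array other than 2-week WT replicate 1 and 2-week null replicate 2. Calb1, the calcium-binding protein calbindin, read 10.13, 10.78, 10.80 and 10.75 at 2 weeks and 10.06, 9.78, 9.68 and 9.83 at 4 months, where replicate 1 was the lowest of the younger arrays, and fell by 0.77 ± 0.17 (SE, 1.71-fold, adjusted p = 0.0107). Of 16 amacrine cell genes 3 were lower (18.8%) and none higher. Vip, the peptide of a small amacrine class, read 6.86, 7.19, 7.78 and 7.62 at 2 weeks and 5.56, 5.97, 5.88 and 6.93 at 4 months; replicate 4 of 4 months overlapped the younger arrays and the other 3 lay below them, and Vip fell by 1.28 ± 0.27 (SE, 2.42-fold, adjusted p = 0.00721). Th, tyrosine hydroxylase of dopaminergic amacrine cells, fell by 0.81 ± 0.14 (SE, 1.75-fold, adjusted p = 0.00256), and the AP-2 factor Tfap2c fell by 0.81 ± 0.16 (SE, 1.75-fold, adjusted p = 0.00562).

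The ganglion cell list had the largest share of falls of all lists. Of 17, 8 were lower (47.1% against 4.81%) and none higher, with a median of -0.27. Slc17a6, the vesicular glutamate transporter of ganglion cells, read 7.50, 9.45, 9.16 and 9.37 at 2 weeks and 7.99, 7.62, 7.23 and 7.72 at 4 months. Replicate 1 at 2 weeks, at 7.50, was far below the other 3 younger arrays and inside the range of the older ones. Slc17a6 fell by 1.23 ± 0.33 (SE, 2.35-fold, adjusted p = 0.028). Of the neurofilaments that fill long axons, the heavy chain Nefh read 10.97, 11.28, 11.35 and 11.34 at 2 weeks and 10.17, 10.16, 10.22 and 10.33 at 4 months, with separate groups, and fell by 1.01 ± 0.12 (SE, 2.02-fold, adjusted p = 0.000106). The medium chain Nefm fell by 0.67 ± 0.093 (SE, 1.59-fold, adjusted p = 0.000445). The POU factor Pou4f3 fell by 0.87 ± 0.15 (SE, at least 1.16-fold, adjusted p = 0.00171), while its relative Pou4f1 was not called (-0.12 ± 0.14 (SE, adjusted p = 0.659)). Gamma-synuclein, Sncg, abundant in ganglion cell axons, fell by 0.58 ± 0.12 (SE, 1.49-fold, adjusted p = 0.00607), and the neuronal RNA-binding protein Elavl4 fell by 0.58 ± 0.12 (SE, 1.49-fold, adjusted p = 0.00775). The count ran from 6 to 10 when single WT arrays were left out, and was 6 with the 8 WT arrays alone; in null, 5 of the 17 were lower. Rbpms, which marks ganglion cells as a class, read 5.94 and 6.03, near the level of absent transcripts at both ages, and was not called. Slc17a6 had an adjusted p of 0.0861 without 2-week WT replicate 3.

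Glial lists held falls and no rise. Of 19 Muller glia genes 3 were lower (15.8%). Muller glia falls numbered 1 without the 3 arrays with Xist. Slc1a3, the glutamate transporter GLAST, fell by 0.48 ± 0.10 (SE, 1.4-fold, adjusted p = 0.00842), and the carbonic anhydrase Car14 fell by 0.73 ± 0.14 (SE, 1.66-fold, adjusted p = 0.005). Car14's other 2 clusters differed by -0.30 and 0.080. Of 15 genes of astrocytes and reactive gliosis 2 were lower (13.3%). Astrocyte falls numbered 1 without 2-week WT replicate 2, 3 or 4 or 4-month WT replicate 2 or 3 or with the 8 WT arrays alone. Gfap, the intermediate filament of astrocytes and of stressed Muller glia, read 5.60, 5.40, 5.69 and 5.92 at 2 weeks and 5.01, 5.13, 4.98 and 5.19 at 4 months; the older arrays were lower throughout and lay, like most of the younger ones, in the range of absent transcripts, and Gfap fell by 0.58 ± 0.11 (SE, adjusted p = 0.00435). Ednrb, an endothelin receptor of astrocytes and Muller glia, fell by 0.76 ± 0.20 (SE, 1.7-fold, adjusted p = 0.0251). In microglia, the resident macrophages that prune synapses with complement, 3 of 19 genes were lower (15.8%), 17 of 19 differences were negative, and the median was -0.23. C1qb and C1qc, chains of the complement trigger C1q, were lower, with differences of -0.59 and -0.42 (adjusted p = 0.0148 and 0.0161). The growth factor receptor Csf1r fell by 0.44 ± 0.098 (SE, at least 1.19-fold, adjusted p = 0.0102). Ednrb and C1qc had adjusted p of 0.0818 and 0.0545 without 2-week WT replicate 3. C1qb had an adjusted p of 0.0517 without 4-month WT replicate 2. None of the 11 myelin genes was called.

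Falls were also frequent among vascular genes. The retinal vessels of the mouse grow after birth under the lead of VEGF from the neural tissue, and pericytes then settle on them. Of 28 genes of endothelium and pericytes 10 were lower (35.7% against 4.81%) and 1 higher; 24 of 28 differences were negative, with a median of -0.23. The pericyte genes were among the largest: Rgs5, a regulator of G protein signalling, read 9.72, 10.45, 10.40 and 10.42 at 2 weeks and 9.02, 9.25, 9.41 and 9.50 at 4 months, and despite a low replicate 1 at 2 weeks the ages did not overlap. Rgs5 fell by 0.95 ± 0.16 (SE, 1.94-fold, adjusted p = 0.00163), and its other cluster differed by -1.69. Abcc9 and Kcnj8, which together form the pericyte potassium channel sensitive to ATP, read 6.56, 7.20, 7.16 and 7.06 at 2 weeks and 5.70, 5.81, 5.99 and 6.03 at 4 months for Abcc9, with all older arrays lower. Abcc9 fell by 1.11 ± 0.15 (SE, 2.16-fold, adjusted p = 0.000302) and Kcnj8 fell by 1.00 ± 0.17 (SE, at least 1.86-fold, adjusted p = 0.0018). The endothelial lipid transporter Mfsd2a, which brings docosahexaenoic acid across the barrier, fell by 1.05 ± 0.24 (SE, 2.07-fold, adjusted p = 0.0121). Apelin, Apln, a peptide of sprouting tip cells, fell by 0.79 ± 0.13 (SE, adjusted p = 0.0017). VE-cadherin, Cdh5, which holds endothelial cells together, fell by 0.75 ± 0.18 (SE, 1.68-fold, adjusted p = 0.0182). Cdh5 had an adjusted p of 0.0552 without 4-month WT replicate 1.

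The exception was Flt1, the VEGF receptor that also exists as a soluble decoy. It read 8.09, 7.80, 7.36 and 7.48 at 2 weeks and 8.57, 8.44, 8.64 and 8.68 at 4 months, each older array above each younger one, and rose by 0.90 ± 0.13 (SE, 1.86-fold, adjusted p = 0.000507). The endothelial adhesion molecule Pecam1 (5.99 and 5.90) and the junction protein Cldn5 (5.11 and 4.93) lay close to or within the range of absent transcripts and were not called. The vascular count ran from 7 to 11 without single WT arrays. In null, 16 of the 28 were lower and 1 higher, and no gene of the list passed the test for a difference between the genotypes. Of 4 measured blood cell genes 1 was lower, and their mean ran from 5.71 to 7.07 at 2 weeks and from 5.29 to 5.73 at 4 months; the part of blood in the vascular falls was not tested.

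**Figure D3:**
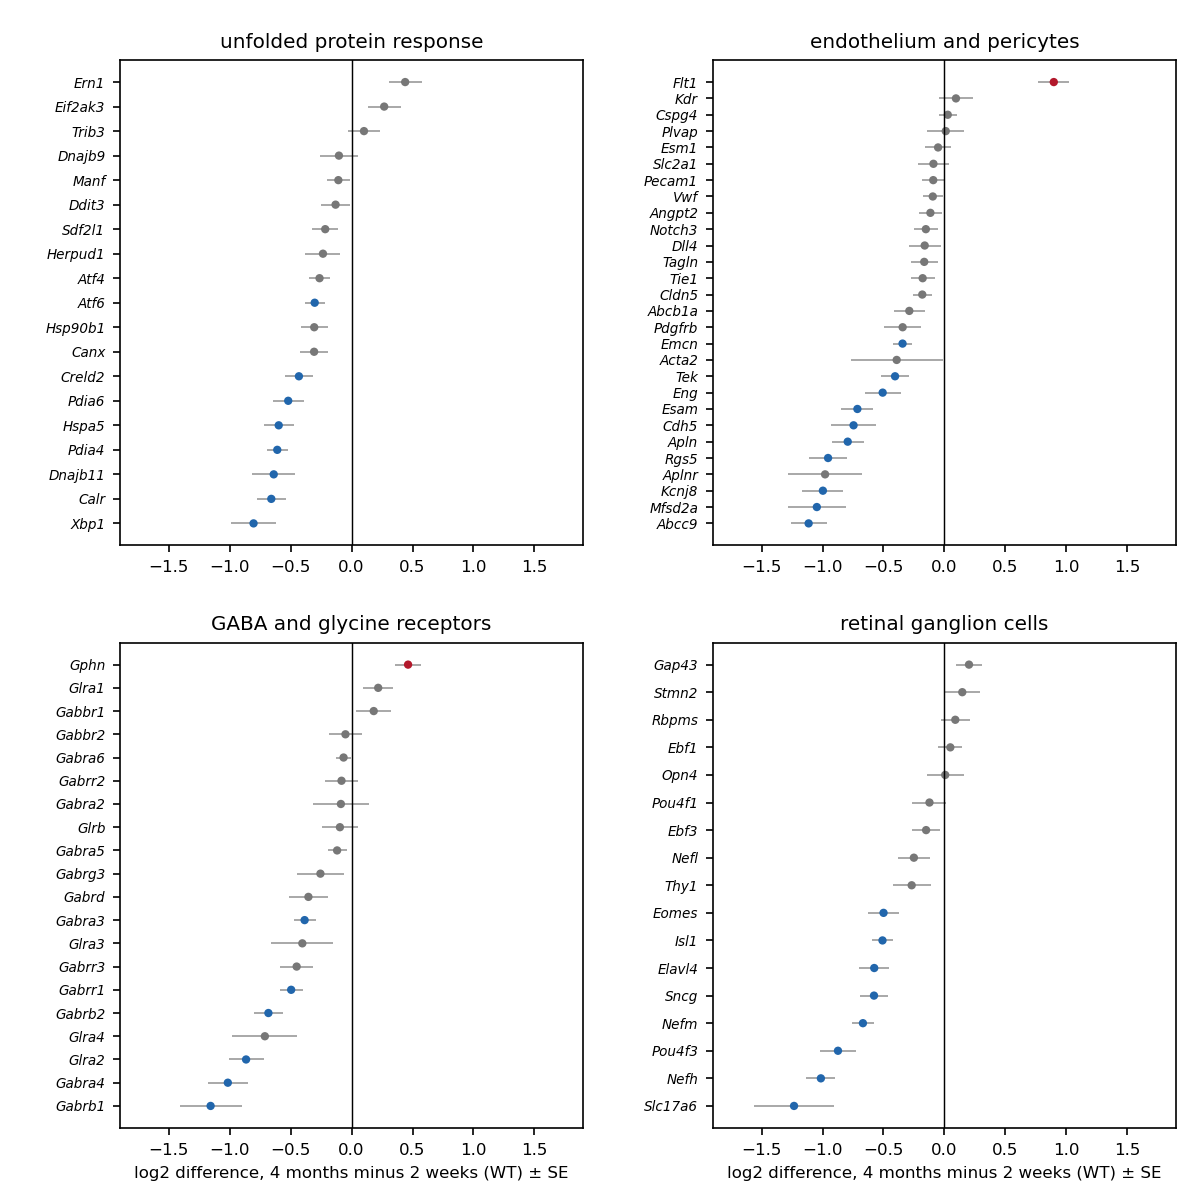
Difference between the ages in WT (x, log2, with SE from limma) for every measured gene of 4 lists (y): the unfolded protein response, endothelium and pericytes, GABA and glycine receptors and retinal ganglion cells. Blue points are called lower at 4 months, red points higher and grey points neither; the called points lie left of 0 apart from Flt1 and Gphn.

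Falls were frequent among genes of young neurons. Neurons that extend axons and dendrites make large amounts of tubulin, stathmins and growth-cone proteins and lose much of this later. Of 26 such genes 10 were lower (38.5%) and 1 higher, with a median of -0.24. For 2 of these calls the transcript cluster did not lie among those of the gene's own chromosome. The mean of the list ran from 8.09 to 8.11 over the younger arrays and from 7.82 to 7.88 over the older ones. Tubb2b, a tubulin of migrating neurons, read 7.66, 7.71, 7.59 and 6.93 at 2 weeks and 6.61, 6.96, 6.16 and 6.58 at 4 months, where replicate 4 of 2 weeks fell just below the highest older array, and Tubb2b fell by 0.90 ± 0.20 (SE, 1.86-fold, adjusted p = 0.0105). The related Tubb2a fell by 0.64 ± 0.12 (SE, 1.56-fold, adjusted p = 0.00422); the beta-tubulins are close in sequence, so their probes may share signal. Marcksl1, an actin regulator of membranes, read 8.98, 9.37, 8.91 and 8.97 at 2 weeks and 7.90, 8.25, 8.34 and 8.24 at 4 months, with separate ages, and fell by 0.87 ± 0.12 (SE, 1.83-fold, adjusted p = 0.000505). Dpysl3, a collapsin response protein of growth cones, fell by 0.71 ± 0.08 (SE, 1.63-fold, adjusted p = 8.15e-05). The exception, the adhesion molecule Ncam1, rose by 0.58 ± 0.11 (SE, 1.5-fold, adjusted p = 0.00292). These falls numbered 5 with the 8 WT arrays alone. 

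Of 23 progenitor and Notch genes 4 were lower (17.4%) and none higher. Fabp7, the fatty acid binding protein of radial glia and young astrocytes, read 7.10, 7.27, 7.28 and 7.27 at 2 weeks and 5.95, 5.80, 6.01 and 5.93 at 4 months. The younger arrays lay over 1 log2 unit above the older ones, and Fabp7 fell by 1.30 ± 0.14 (SE, 2.47-fold, adjusted p = 6.11e-05). Pax6, the homeodomain factor of progenitors that adult amacrine and ganglion cells retain, fell by 0.56 ± 0.12 (SE, 1.47-fold, adjusted p = 0.00801), and its other 4 clusters had negative differences as well. Sox11 and Sox4, which promote neuronal differentiation, were lower, with differences of -0.43 and -0.31 (adjusted p = 0.0158 and 0.0276). The falls of this list numbered 2 without the 3 arrays with Xist or with the 8 WT arrays alone. Sox4 had an adjusted p of 0.0878 without 4-month WT replicate 1. Sox11 had an adjusted p of 0.0507 without 4-month WT replicate 2.

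Cell division is over in the neural retina by 2 weeks, and its genes were already weak: the mean of 26 mitotic genes ran from 5.90 to 6.09 at 2 weeks and from 5.74 to 5.82 at 4 months. Of these, 7 were lower (26.9% against 4.81%), 1 was higher, and 24 of 26 differences were negative. The list also holds the cell cycle inhibitors Cdkn1a, Cdkn1b and Cdkn1c, and Cdkn1b was among the 7 falls. Mki67, the antigen that marks cycling cells, read 5.57, 6.05, 5.78 and 5.09 at 2 weeks and 5.14, 5.17, 4.87 and 4.95 at 4 months; most values lie at the level of absent transcripts, and replicate 4 of 2 weeks lay among the older arrays. It fell by 0.59 ± 0.16 (SE, adjusted p = 0.0338). The mitotic kinase Plk1 fell by 0.86 ± 0.19 (SE, at least 1.6-fold, adjusted p = 0.00818), with the other cluster at 0.061, and the ubiquitin-conjugating enzyme Ube2c of the anaphase-promoting complex fell by 0.72 ± 0.17 (SE, at least 1.1-fold, adjusted p = 0.0154). The spindle motor Kif11 fell by 0.44 ± 0.096 (SE, adjusted p = 0.00877) and topoisomerase II alpha, Top2a, fell by 0.32 ± 0.081 (SE, adjusted p = 0.0226). Cyclin A2, Ccna2, went the other way at 0.48 ± 0.13 (SE, adjusted p = 0.0276). Mitotic falls numbered 4 without 4-month WT replicate 1 or with quantile normalization and 3 without 2-week WT replicate 3 or with the 8 WT arrays alone. Mki67 and Ube2c had adjusted p of 0.103 and 0.0581 without 2-week WT replicate 3. Ccna2 had an adjusted p of 0.0824 without 4-month WT replicate 1. Top2a had an adjusted p of 0.0651 without 2-week WT replicate 2. Of 23 DNA replication genes none was lower and 2 were higher (8.70%), thymidylate synthase Tyms (0.65 ± 0.11 (SE, adjusted p = 0.00228)) and the polymerase subunit Pola1 (0.48 ± 0.13 (SE, adjusted p = 0.0301)). Replication rises numbered 1 without 2-week WT replicate 3 or 4, 4-month WT replicate 1 or 2 or the 3 arrays with Xist or with the 8 WT arrays alone. Pola1 had an adjusted p of 0.0997 without 4-month WT replicate 1.

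Mitotic genes are switched off in resting cells through a promoter element, the cell cycle genes homology region, whose letters are TTTGAA. RefSeq promoter windows of the build GRCm38.p6, matched by symbol, were at hand for 15650 of the 20259 genes, and 14.8% of their 19217 windows hold TTTGAA on either strand. Of the 7 genes of the mitotic list that fell, 5 have it (71.4%), against 11.4% of the windows of all called falls and 9.86% of those of all called rises. The first match is shown in capitals in these 5 genes, 5′ to 3′ on the strand of the gene; in Ube2c and Kif11 it lies on the other strand and reads TTCAAA.
Plk1 (chr7:122159440-122159484, + strand): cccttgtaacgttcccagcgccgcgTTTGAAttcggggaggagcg
Ube2c (chr2:164769875-164769930, + strand): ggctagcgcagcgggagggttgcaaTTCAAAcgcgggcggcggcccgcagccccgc
Mki67 (chr7:135716465-135716520, - strand): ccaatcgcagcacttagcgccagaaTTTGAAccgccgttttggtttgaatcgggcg
Kif11 (chr19:37376338-37376393, + strand): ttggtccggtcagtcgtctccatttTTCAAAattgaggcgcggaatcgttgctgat
Top2a (chr11:99024338-99024393, - strand): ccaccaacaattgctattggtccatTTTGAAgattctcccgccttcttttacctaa
A match is a string of letters in a window and does not show that a factor binds there. TTTGAA was not counted apart in the genes of the mitotic list that were not called, so the falls cannot be set against them. Whether the element has a part in the falls was not tested. Over all called genes the other strings searched on both strands were about as frequent as in all windows: CCAAT in 36.9% of rises and 39.3% of falls (all 37.5%), the hypoxia core ACGTG in 22.1% and 21.2% (all 22.0%), the E-box CACGTG in 8.23% and 6.79% (all 8.46%), the interferon core (GAAA, any 2 bases, GAAA) in 2.17% and 2.93% (all 3.06%) and the CRX-type site TAATCC in 6.83% and 6.17% (all 6.28%).

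The unfolded protein response list held a large share of falls. Its genes fold, modify and export secreted and membrane proteins in the endoplasmic reticulum, and sensors raise them when unfolded protein builds up. Of 19 measured, 8 were lower (42.1% against 4.81%) and none higher, 16 of 19 differences were negative and the median was -0.30. The mean of the list ran from 8.64 to 8.87 over the younger arrays and from 8.45 to 8.48 over the older ones. Among the factors, Xbp1, which is spliced to its active form under stress, read 8.17, 8.37, 8.99 and 9.18 at 2 weeks and 7.88, 7.82, 7.98 and 7.80 at 4 months; the groups were separate, and Xbp1 fell by 0.80 ± 0.19 (SE, 1.75-fold, adjusted p = 0.0131). Among the chaperones, Hspa5 (BiP), which binds unfolded chains, read 11.52, 11.06, 11.40 and 11.48 at 2 weeks and 11.09, 10.54, 10.67 and 10.79 at 4 months, where the lowest younger array, replicate 2, lay just under the highest older one. Hspa5 fell by 0.60 ± 0.12 (SE, 1.51-fold, adjusted p = 0.00667). Calr, the lectin chaperone calreticulin, read 9.58, 9.81, 9.93 and 10.12 at 2 weeks and 9.01, 9.11, 9.27 and 9.42 at 4 months and fell by 0.66 ± 0.12 (SE, 1.58-fold, adjusted p = 0.00287), again without overlap. The BiP cofactor Dnajb11 read 8.33, 8.99, 9.03 and 9.04 at 2 weeks and 7.98, 8.04, 8.31 and 8.51 at 4 months, with 2-week replicate 1 far below its group and inside the older range, and Dnajb11 fell by 0.64 ± 0.18 (SE, 1.56-fold, adjusted p = 0.0323). Of the disulfide isomerases, Pdia4 fell by 0.61 ± 0.086 (SE, 1.53-fold, adjusted p = 0.000498) and Pdia6 fell by 0.52 ± 0.13 (SE, 1.43-fold, adjusted p = 0.0161); the second cluster of Pdia6 differed by 0.19. These falls numbered 5 without 2-week WT replicate 3 or 4 or 4-month WT replicate 1 or 2 and 4 with the 8 WT arrays alone. In null, 7 were lower and 1 higher. Xbp1 and Dnajb11 had adjusted p of 0.0512 and 0.101 without 2-week WT replicate 3. Pdia6 had an adjusted p of 0.0527 without 4-month WT replicate 1.

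Sensors of this response act through the endoplasmic reticulum stress element, the letters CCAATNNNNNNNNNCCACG, which contain a CCAAT box. This element was searched after the falls had been seen. It lies on either strand in 24 of the 19217 promoter windows (0.125%), in 6 of the 17 windows of the list (35.3%), in 7 of 957 windows of called falls (0.731%) and in none of 923 windows of called rises. Of the 23 measured genes that have it, 7 were called lower and none higher. The list and the element belong to the same response, so the share in the list does not rest on these data. As 4 of the 7 falls are genes of the list, the count among called falls repeats it in part. A match does not show that a factor binds there, and whether the element has a part in the falls was not tested. The element is shown in capitals in the 4 listed genes that fell, 5′ to 3′ on the strand of the gene; in Calr and Creld2, a secreted stress protein, it lies on the other strand.
Hspa5 (chr2:34771995-34772073, + strand): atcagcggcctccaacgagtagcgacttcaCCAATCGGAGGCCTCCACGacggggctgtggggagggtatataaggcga
Calr (chr8:84847045-84847123, - strand): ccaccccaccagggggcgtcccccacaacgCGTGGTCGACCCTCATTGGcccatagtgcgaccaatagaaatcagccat
Pdia6 (chr12:17266461-17266539, + strand): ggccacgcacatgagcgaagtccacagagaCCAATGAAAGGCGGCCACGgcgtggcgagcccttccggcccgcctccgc
Creld2 (chr15:88819490-88819568, + strand): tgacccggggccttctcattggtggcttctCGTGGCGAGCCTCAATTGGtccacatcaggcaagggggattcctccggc
Creld2, named here for its element after its value was seen, fell by 0.43 ± 0.12 (SE, 1.35-fold, adjusted p = 0.029). Creld2 had an adjusted p of 0.0873 without 4-month WT replicate 4. Counted from the start site, the first base of the element lies at -65 in Hspa5, -98 in Pdia6, -126 in Creld2 and -162 in Calr.

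The extracellular matrix list held further falls. Of 31 genes of matrix and basement membrane 9 were lower (29.0%) and none higher, with a median of -0.40. Postn, periostin, which binds collagen, read 6.504, 8.04, 7.62 and 7.59 at 2 weeks and 5.64, 5.94, 5.75 and 5.91 at 4 months, and no older array reached the younger ones. Lamb1, the beta chain of the laminins of vessels and the inner limiting membrane, read 7.38, 7.48, 7.45 and 7.001 at 2 weeks and 6.63, 6.16, 6.34 and 6.27 at 4 months and fell by 0.97 ± 0.13 (SE, 1.96-fold, adjusted p = 0.000302), with separate ages. Ncan, neurocan, a chondroitin sulfate proteoglycan of the neural matrix, fell by 0.89 ± 0.14 (SE, 1.86-fold, adjusted p = 0.000885); the other cluster, near the absent level, differed by 0.15. Sparc, a collagen-binding glycoprotein, fell by 0.79 ± 0.15 (SE, 1.72-fold, adjusted p = 0.00328). Thrombospondin 1, Thbs1, an inhibitor of vessel growth, fell by 1.25 ± 0.37 (SE, 2.37-fold, adjusted p = 0.0466). Matrix falls numbered 5 with the 8 WT arrays alone. Thbs1 had an adjusted p of 0.133 without 4-month WT replicate 2.

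All 31 measured genes of the collagen list had negative differences, with a median of -0.20, and 4 were lower (12.9%). The list does not hold every collagen gene. Over all 42 measured genes whose symbol is Col followed by a digit, 4 were lower and none higher, with a median of -0.17. Col9a1, of the vitreous and ciliary body collagen IX, read 9.09, 8.44, 8.37 and 8.02 at 2 weeks and 7.57, 7.50, 7.21 and 6.997 at 4 months and fell by 1.16 ± 0.20 (SE, 2.24-fold, adjusted p = 0.00189). Of the enzymes that modify collagen, 5 of 16 were lower (31.2%) and 1 higher (6.25%), with a median of -0.39. Falls among these enzymes numbered 3 without 2-week null replicate 3, 4-month WT replicate 4 or 4-month null replicate 3 or 4, 2 without 2-week null replicate 1 or 4-month null replicate 1, 1 without 2-week WT replicate 1 or 2 or 4-month WT replicate 1 or with median centring and 0 without 2-week WT replicate 3 or 4-month WT replicate 2 or 3 or with the 8 WT arrays alone. Collagen falls numbered 8 without 2-week WT replicate 4, 2 without 2-week WT replicate 3 or 4-month WT replicate 1 or 2 and 1 with the 8 WT arrays alone. The markers of fibroblasts that moved with them were 3 of 13 (23.1%), Aspn, Mgp (-0.49 ± 0.11 (SE, adjusted p = 0.0122)) and Col3a1 (-0.31 ± 0.086 (SE, adjusted p = 0.0308)). Every WT array of Mgp and Col3a1 read within the absent range, so these 2 falls lie at the level of genes not expressed. The mean of that list ran from 5.46 to 6.10 at 2 weeks and from 5.20 to 5.67 at 4 months. Lum stayed at the absent level too, and the part of fibroblasts in the matrix falls was not tested. Fibroblast falls numbered 5 without 2-week WT replicate 4 and 1 with the 8 WT arrays alone. Col3a1 had an adjusted p of 0.0871 without 4-month WT replicate 2.

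In lipid metabolism, rises were counted among genes of long-chain fatty acid synthesis. Photoreceptor discs are rich in docosahexaenoic acid, made by elongases and desaturases or taken up from blood. Of 19 genes 5 were higher (26.3% against 4.38%) and 1, the carrier Mfsd2a, lower. Its rises numbered 3 without the 3 arrays with Xist and 2 with the 8 WT arrays alone. Elovl6, which extends saturated chains, read 6.18, 6.36, 5.90 and 6.27 at 2 weeks and 6.93, 6.72, 6.72 and 6.62 at 4 months; the ages were separate and Elovl6 rose by 0.57 ± 0.10 (SE, 1.49-fold, adjusted p = 0.00229). Elovl5, an elongase of polyunsaturated chains, rose by 0.42 ± 0.098 (SE, 1.34-fold, adjusted p = 0.0129). Scd1, the stearoyl desaturase, rose by 0.80 ± 0.20 (SE, 1.75-fold, adjusted p = 0.0201). Acaca, acetyl-CoA carboxylase, which makes the malonyl-CoA they consume, rose by 1.04 ± 0.14 (SE, 2.06-fold, adjusted p = 0.00031); its other 5 clusters ran from -0.027 to 0.21. Scd1 had an adjusted p of 0.0597 without 4-month WT replicate 4. Of sterol genes, Npc1, which lets cholesterol out of lysosomes, read 9.68, 9.95, 9.85 and 9.91 at 2 weeks and 10.43, 10.30, 10.31 and 10.27 at 4 months and rose by 0.48 ± 0.08 (SE, 1.4-fold, adjusted p = 0.00159). The exporter Abcg1 rose by 0.43 ± 0.093 (SE, 1.34-fold, adjusted p = 0.00904), and Lcat, which esterifies cholesterol of lipoproteins, fell by 0.71 ± 0.15 (SE, 1.63-fold, adjusted p = 0.00801). Of 19 genes of cholesterol synthesis 1 was called, Srebf2, whose transcript cluster did not lie among those of the gene's own chromosome. 

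In energy metabolism most genes were not called, though 1 list had a larger share of falls. Of 18 genes of creatine, carnitine and mitochondrial fuel 5 were lower (27.8%) and none higher, with a median of -0.17. These falls ran from 0 to 6 without single WT arrays. They numbered 2 with median centring and 0 with the 8 WT arrays alone. Of 24 genes of glycolysis and lactate transport 2 were higher (8.33%) and 3 lower (12.5%), with a median of -0.081, and of 28 of oxidative phosphorylation 3 were higher (10.7%) and 1 lower (3.57%), with a median of -0.033. Glycolytic rises numbered 1 without 2-week WT replicate 3 or 4, 4-month WT replicate 2 or 4 or the 3 arrays with Xist and 0 with the 8 WT arrays alone. Glycolytic falls numbered 1 without 2-week WT replicate 3, 4-month WT replicate 3 or the 3 arrays with Xist or with the 8 WT arrays alone. The lactate transporter Slc16a3 fell by 0.51 ± 0.12 (SE, 1.42-fold, adjusted p = 0.0116). Ndufv2, of mitochondrial complex I, read 9.61, 9.65, 9.44 and 9.70 at 2 weeks and 10.04, 10.12, 10.16 and 10.28 at 4 months and rose by 0.55 ± 0.081 (SE, 1.47-fold, adjusted p = 0.000632). Cox6a1, of complex IV, rose by 0.60 ± 0.091 (SE, 1.51-fold, adjusted p = 0.000853), but its other cluster differed by -0.26. Of 24 hypoxia genes 3 were lower (12.5%), 5 without 2-week WT replicate 1: Stc2, stanniocalcin 2, fell by 0.53 ± 0.096 (SE, at least 1.02-fold, adjusted p = 0.00292), and the histone demethylase Kdm3a fell by 0.51 ± 0.1 (SE, 1.43-fold, adjusted p = 0.00469). Epas1, the hypoxia-inducible factor of vessels, was the only called rise there (0.38 ± 0.11 (SE, adjusted p = 0.0415)). Epas1 had an adjusted p of 0.104 without 4-month WT replicate 4. In null 13 of these 24 were lower.

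The receptors of fast inhibition formed another group of falls. GABA-A and glycine receptors are chloride channels of 5 subunits, whose composition changes as circuits mature. Of 20 genes 6 were lower (30%) and 1 higher, with a median of -0.30. Glra2, the glycine receptor alpha subunit of young neurons, read 10.23, 10.32, 10.57 and 10.50 at 2 weeks and 9.52, 9.87, 9.24 and 9.52 at 4 months; the ages did not overlap and Glra2 fell by 0.87 ± 0.14 (SE, 1.82-fold, adjusted p = 0.00163). Gabra4 read 7.93, 7.70, 8.24 and 7.86 at 2 weeks and 7.12, 7.07, 6.57 and 6.91 at 4 months and fell by 1.02 ± 0.16 (SE, 2.02-fold, adjusted p = 0.00117), likewise apart. Gabrb1 fell by 1.16 ± 0.25 (SE, 2.23-fold, adjusted p = 0.00932) and Gabrb2 fell by 0.68 ± 0.12 (SE, 1.6-fold, adjusted p = 0.00244), with the other Gabrb2 cluster at -0.40. Gabrr1, a subunit of bipolar cell terminals, fell by 0.50 ± 0.094 (SE, 1.41-fold, adjusted p = 0.00371), and Gabra3 fell by 0.39 ± 0.09 (SE, 1.31-fold, adjusted p = 0.0129). Gephyrin, Gphn, the scaffold that anchors these receptors, rose by 0.46 ± 0.11 (SE, 1.38-fold, adjusted p = 0.0114). Falls of receptors numbered 10 without 2-week WT replicate 1. 

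Sodium channels showed falls of some subunits beside a rise of another. Scn3a, the alpha subunit of fetal neurons, had 7.38, 7.60, 7.82 and 8.13 at 2 weeks and 6.86, 6.48, 6.73 and 7.07 at 4 months and fell by 0.95 ± 0.17 (SE, 1.93-fold, adjusted p = 0.00249), though its other 3 clusters ran from -0.077 to 0.14. Scn2a fell by 0.58 ± 0.13 (SE, 1.5-fold, adjusted p = 0.012) and the beta subunit Scn3b fell by 0.84 ± 0.15 (SE, 1.79-fold, adjusted p = 0.00283). Scn8a, the alpha subunit of mature nodes and axon initial segments, read 7.56, 8.13, 7.88 and 8.32 at 2 weeks and 8.77, 8.77, 8.78 and 8.82 at 4 months; every older array was above every younger one, and Scn8a rose by 0.81 ± 0.14 (SE, 1.75-fold, adjusted p = 0.00217). In the list of 28 sodium and calcium channel genes 4 were lower (14.3%) and 1 higher (3.57%). Their falls numbered 7 without 2-week WT replicate 1 and 2 with the 8 WT arrays alone. Of 39 potassium channel genes 4 were lower (10.3%) and 1 higher (2.56%), Kcnip2 with the largest change. Potassium channel falls numbered 2 without 2-week WT replicate 3. Of 21 glutamate receptor genes 4 were lower. Glutamate receptor falls numbered 2 without 2-week WT replicate 3 or 4 or 4-month WT replicate 1, 2 or 3 or with median centring and 0 with the 8 WT arrays alone. 

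Transporters and signals changed singly. Slc38a5, a glutamine transporter, read 6.34, 5.96, 6.39 and 6.10 at 2 weeks and 5.19, 5.23, 5.37 and 5.39 at 4 months and fell by 0.90 ± 0.10 (SE, at least 1.35-fold, adjusted p = 8.48e-05), with separate groups, the older of which lay in the range of absent transcripts. Slc6a6, the taurine transporter on which photoreceptors depend, read 10.58, 10.28, 10.03 and 10.27 at 2 weeks and 11.04, 11.12, 10.92 and 10.68 at 4 months; the ages were separate and Slc6a6 rose by 0.65 ± 0.12 (SE, 1.57-fold, adjusted p = 0.0027). In thyroid hormone signalling, where Dio2 fell, the hormone transporter Slco1c1 rose by 0.67 ± 0.16 (SE, 1.59-fold, adjusted p = 0.0165), while 3 of the 20 genes of that list were lower (15%) and 16 were not called. Its falls numbered 1 without 2-week WT replicate 2 or 3 or 4-month WT replicate 3. Id1, an inhibitor of helix-loop-helix factors that BMP signals raise, had 6.27, 6.76, 6.88 and 6.77 at 2 weeks and 5.59, 5.75, 5.65 and 5.61 at 4 months and fell by 1.02 ± 0.13 (SE, at least 1.87-fold, adjusted p = 0.000182). Igfbp5, which binds insulin-like growth factors, fell by 1.38 ± 0.22 (SE, 2.6-fold, adjusted p = 0.00105), and their receptor Igf1r rose by 0.73 ± 0.18 (SE, 1.66-fold, adjusted p = 0.0162). In the Wnt pathway, which drives vessel and neural patterning, 4 of 30 genes were lower (13.3%) and none higher. Wnt falls numbered 2 without 2-week WT replicate 3 or 4-month WT replicate 2, 3 or 4 or with the 8 WT arrays alone. The receptor Fzd8 fell by 0.89 ± 0.19 (SE, 1.85-fold, adjusted p = 0.00888), and the transducer beta-catenin, Ctnnb1, fell by 0.52 ± 0.082 (SE, 1.43-fold, adjusted p = 0.00116). Igf1r had an adjusted p of 0.0624 without 2-week WT replicate 3.

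Survival genes of the BCL2 and IAP families included 2 rises. Bcl2, which blocks the mitochondrial path to cell death, read 6.77, 6.59, 6.33 and 6.45 at 2 weeks and 7.75, 7.81, 7.38 and 7.49 at 4 months, with the older arrays all higher, and rose by 1.07 ± 0.16 (SE, 2.1-fold, adjusted p = 0.000853). Xiap, which inhibits caspases, read 10.39, 10.53, 10.42 and 10.72 at 2 weeks and 11.36, 11.27, 11.35 and 11.25 at 4 months and rose by 0.79 ± 0.087 (SE, 1.73-fold, adjusted p = 6.11e-05). In their list of 22, 2 were higher (9.09%) and 1 lower (4.55%), with a median of -0.038. In the circadian clock list, for which no dissection times were at hand, 16 of 19 differences were positive and 2 were called higher (10.5%): the repressor Bhlhe41 rose by 0.65 ± 0.13 (SE, 1.56-fold, adjusted p = 0.00547) and the period gene Per3 rose by 0.31 ± 0.086 (SE, 1.24-fold, adjusted p = 0.0323). Per3 had an adjusted p of 0.0999 without 4-month WT replicate 1. Clock rises numbered 4 without 4-month WT replicate 4 or the 3 arrays with Xist or with median centring and 1 without 4-month WT replicate 1, 2 or 3 or with the 8 WT arrays alone. Adhesion genes had 2 rises (6.06%) and 4 falls (12.1%) among 33: Pcdh18, a protocadherin, fell by 1.15 ± 0.17 (SE, 2.22-fold, adjusted p = 0.000556), and Dscaml1, which spaces amacrine and bipolar cells, rose by 0.46 ± 0.1 (SE, 1.38-fold, adjusted p = 0.00811). Adhesion falls numbered 7 without 2-week WT replicate 1 and 2 without 2-week WT replicate 3 or 4-month WT replicate 1 or with the 8 WT arrays alone. Adhesion rises numbered 1 without 2-week WT replicate 2, 3 or 4, 2-week null replicate 2, 3 or 4, 4-month WT replicate 1, 2 or 4 or 4-month null replicate 1, 3 or 4 or with the 8 WT arrays alone or quantile normalization. Of 37 axon guidance genes 3 were higher (8.11%) and none lower. Guidance rises numbered 1 without 2-week WT replicate 3 or 4-month WT replicate 1 or with the 8 WT arrays alone.

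**Figure D4:**
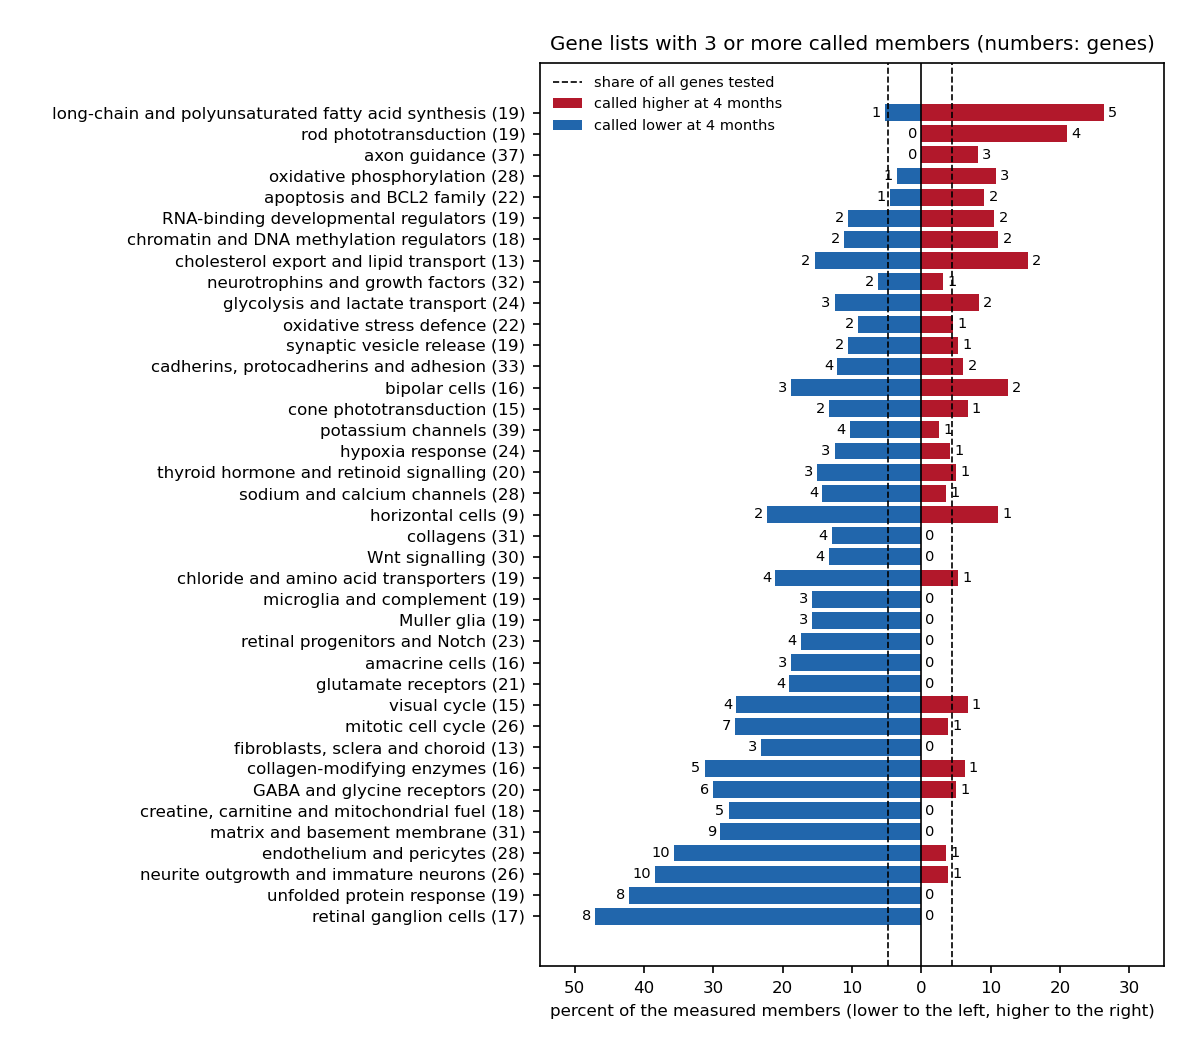
Share of the measured genes of each list called higher (red, right) or lower (blue, left) at 4 months in WT, as a percentage, for the lists with 3 or more called genes; the number of measured genes stands in brackets and the number called at the end of each bar. The dashed lines mark the shares over all 20259 genes, 4.38% higher and 4.81% lower, and ganglion cells (47.1%) and the unfolded protein response (42.1%) reach farthest to the left.

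Some of the called genes with the highest signal could not be assigned with confidence. Of the 8 strongest called rises 7 rested on transcript clusters that did not lie among those of the gene's own chromosome. Of the 8 strongest called falls this held for 4. The symbol Slc38a6 stands at 88 clusters in all and Sgip1 at 106. Over all calls, 108 of 1861 rested on a cluster that did not lie among those of the gene's own chromosome. They included 2 calls of the list of young neurons. Also among them were 3 calls of chromatin and DNA methylation regulators, a list with 2 called rises and 2 called falls. Collagen-modifying enzymes, glycolysis and lactate transport, oxidative phosphorylation and potassium channels had 1 such call each. So did cholesterol synthesis, oxidative stress defence and cytosolic ribosomal proteins. Where the position was in order, the strongest rises by signal included Gnat1, Sag and the transcription coactivator Tcf20, which read 12.28, 12.19, 12.35 and 12.31 at 2 weeks and 12.92, 12.97, 12.87 and 13.13 at 4 months and rose by 0.69 ± 0.089 (SE, 1.61-fold, adjusted p = 0.000244). The strongest falls included Opn1mw, Rdh12, Neurod4, Sv2b and Pdc, described above, and Lrtm1, a leucine-rich repeat membrane protein, which fell by 0.40 ± 0.092 (SE, 1.32-fold, adjusted p = 0.0118).

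The change with age in WT was set beside that in null retinas, which used other arrays but the same estimate of spread. In null 1947 genes (9.61%) were called, 752 higher and 1195 lower. Called in both genotypes were 385 rises, which is 43.4% of those in WT and 51.2% of those in null, and 536 falls, 55.0% and 44.9%; no gene was called in opposite directions. Of the 887 WT rises 846 had a positive difference in null and of the 974 WT falls 922 a negative one. Across the 20259 genes, which are not independent, the differences of the genotypes had a Pearson r of 0.664. A change that passes in WT and not in null is not thereby shown to differ. The test of the difference itself called 2 genes (0.00987%), with 1199 at an unadjusted p under 0.05. These were Fabp7 and Dnajb14, a chaperone cofactor of the endoplasmic reticulum membrane. Fabp7 fell in WT (above), and in null the change was -2.84 (difference of the changes 1.54, adjusted p = 0.0107). Dnajb14 read 7.57, 7.32, 7.80 and 7.91 at 2 weeks and 7.92, 8.02, 7.56 and 7.76 at 4 months in WT, overlapping between the ages, and changed by 0.16 ± 0.12 (SE, adjusted p = 0.475) there, against 1.49 in null (difference -1.33, adjusted p = 0.0107). Leaving out 2-week WT replicate 1 raised this count to 20 and leaving out 2-week WT replicate 2 to 9; without the 3 arrays with Xist it was 10, with neither gene among them.

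**Figure D5:**
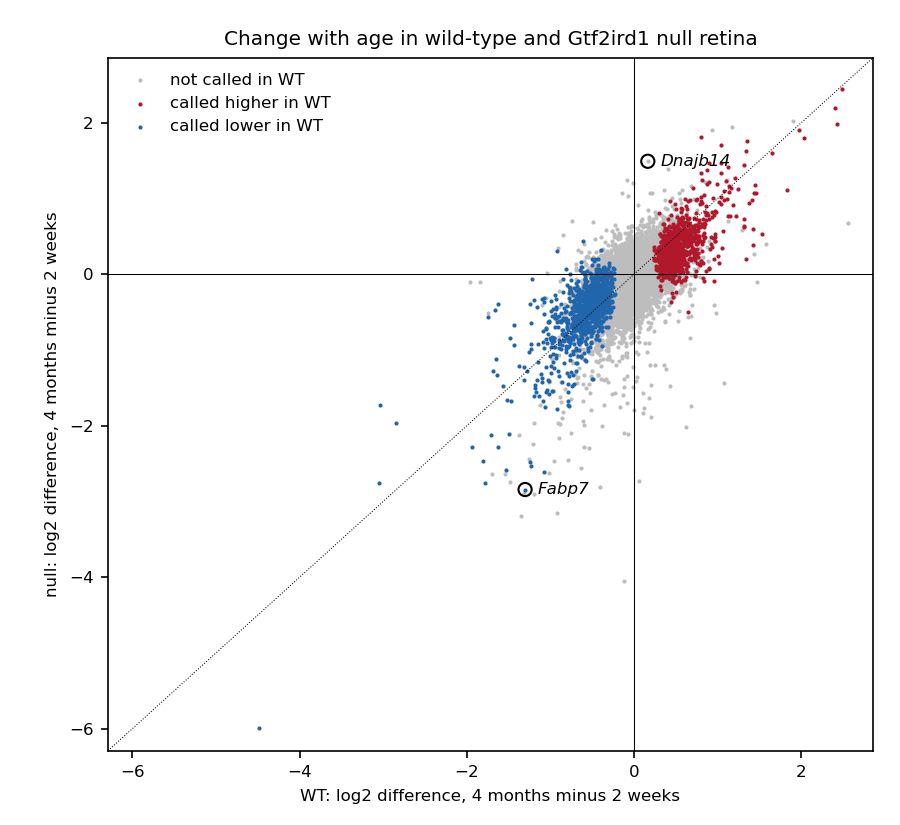
Difference between 4 months and 2 weeks in WT (x) and in Gtf2ird1 null (y), both as log2, for the 20259 genes, with genes called in WT in colour. Most coloured points lie to the lower left and upper right of 0, and the ringed genes Fabp7 and Dnajb14 are the 2 whose change with age differed between the genotypes (adjusted p = 0.0107 for each).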

How the data were processed

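RNA of 16 mouse retinas was labelled with biotin for Affymetrix exon arrays, per the labels' protocols. The authors made log2 signals, deposited for each transcript cluster on each array, and the submitters' processing notes name RMA, Partek and the build mm8, with versions not given. That the scale is log2 was taken from the range, 3.76 to 15.7. Array medians ran from 5.31 to 5.55, and no further scaling was applied.

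Of 115830 transcript clusters 25539 carried 1 gene symbol, 2300 several and 87991 none. The cluster of highest mean over all arrays stood for each of 20259 genes, of which 3109 had several; the mean signal was not filtered. For 888 genes the chosen cluster did not lie among those of the gene's own chromosome, by the order of the table and a RefSeq gene table used for this alone.

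A single limma 3.58.1 model (R 4.3.3, lmFit and eBayes) held a mean for each of the 4 groups over 16 arrays, leaving 12 residual degrees of freedom, so SEs and p-values pool the spread of all 4 groups. P-values were adjusted by Benjamini-Hochberg and called under 0.05. Single transcript clusters of Gtf2ird1 were compared by a two-sided exact permutation test of 4 against 4 arrays. Precision is limited by having 4 arrays a group. The procedure was tested on simulated data.

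The 60 gene lists (1262 genes, 1123 measured) are described by counts and medians, with no set test; some genes stand in several lists. The members, lists and tests were chosen with earlier results of these data known. The text names, among called genes with separate groups, the 15 largest rises and falls; the 8 called rises and falls of highest signal; Gtf2ird1 and the photoreceptor genes Gnat1, Opn1sw, Opn1mw, Arr3, Gnat2, Crx and Nrl (another item is not reported here); up to 6 members of each list described and defining markers; and the genes whose change with age differed between genotypes. Predicted genes and receptors of smell, 142 of the called genes, were counted and not named. A few further genes are named without values to describe a list or the stress element.

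Whether replicate numbers pair the arrays of the 2 ages was checked from residuals: the correlations of same-numbered arrays were -0.080, 0.19, -0.072 and 0.21, so the numbers were not treated as pairs. The alternatives were quantile normalization, median centring, a filter at the median signal, the mean over a gene's clusters, all clusters of the table, the 8 WT arrays alone, eBayes with trend and robust, no moderation, array weights, a replicate block, covariates for sex and for lens signal, a threshold of 0.1, a fold minimum of 1.5 and the removal of each array in turn. Added after seeing the data were the fits without the 3 WT arrays with Xist, the fit on genes in chromosome order and the search for the stress element.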

Additional observations from a re-analysis of the deposited data

Results flagged for a closer look

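In 360 groups of 4 arrays (180 genes at 2 ages), 25 had an array far from the other 3; by chance about 5 in 100 groups would. Of these arrays 12 were replicate 1 of 2-week WT, the array that stood apart over all genes. It was low for Slc17a6 (7.50), Calb1 (10.13), Dnajb11 (8.33), Rgs5 (9.72), Fabp7 (7.10), Gucy2e (9.98), Pou4f1 (6.57), Rp1 (10.46) and Scn2a (9.01). It was high for Elavl4 (6.71), Isl1 (9.57) and Cldn5 (5.21). Leaving that array out ended 5 of the 162 calls of genes given with values.

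The other outlying arrays were spread over the replicates. At 2 weeks, Ube2l6 was high in replicate 3 (9.63), Marcksl1 high in replicate 2 (9.37), Nrl high in replicate 4 (11.47), and Tubb2b (6.93) and Wfdc1 (7.35) low in replicate 4. At 4 months, replicate 4 was high for Cryga (6.75), Plk1 (5.95) and Scn8a (8.82) and low for Cep164 (9.42) and Bhlhe41 (10.22). Replicate 3 of that age was low for Cpeb3 (9.02) and Wfdc1 (6.05), and replicate 1 was high for Ccna2 (7.65).

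The change with age in WT minus that in null was 1.54 for Fabp7 and -1.33 for Dnajb14, the 2 genes past the test of that difference. Neither was called with the replicate block or without the 3 arrays with Xist.

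Clusters without a gene symbol, which no comparison above uses, also changed with age: 4330 of 87991 (4.92%) were called in WT when all clusters were tested together, 3252 higher and 1078 lower at 4 months.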

How the results depend on the processing

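Of 1861 genes called between the ages in WT, counts under other settings moved by over 1.5 times in these cases: 855 with the 8 WT arrays alone, 2903 with array weights, 2797 at an adjusted p under 0.1, 677 with a fold of at least 1.5, and 6247 when all clusters of the table were tested. Leaving out single WT arrays gave 1117 to 2606 calls, and single null arrays 1620 to 1926. Median centring raised the share of rises among the calls from 47.7% to 60.1%, quantile normalization gave 54.6% and leaving out 2-week WT replicate 1 gave 38.0%. The 2 genes whose change differed between genotypes became 0 with no moderation, 0 with the replicate block, 1 with the lens covariate, 38 with array weights, 20 over all clusters, 10 without the 3 arrays with Xist, and 2 to 20 without single arrays. The cause of these shifts was not tested, apart from the fewer arrays and other thresholds that the settings themselves impose. With the replicate block, 1546 genes were called between the ages, 1493 of them among the 1861; 2 of the 4 arrays of 2 weeks correlated best with their own number. Of 180 genes given with values, 162 were called, 100 of them in all 28 settings, and none changed sign while called. The 8 WT arrays alone ended 40 calls, the fit without the arrays with Xist 27, the mean over a gene's clusters 10, the replicate block 8, median centring 5 and quantile normalization 4. Several mitotic, glial and vascular genes read near the range of absent transcripts, which limits their values.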

Other observations

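Among gene families outside the lists, all chosen after their values were seen and given as descriptions, the beta protocadherins stood out. These clustered genes encode adhesion proteins that give neurons different surface identities. Of 22 measured Pcdhb genes 10 were called lower at 4 months (against 4.81% of all genes) and none higher, with a median of -0.37. Pcdhb10 read 8.32, 8.61, 9.08 and 9.01 at 2 weeks and 7.41, 7.61, 7.23 and 7.83 at 4 months; the ages did not overlap, and it fell by 1.23 ± 0.18 (SE, 2.35-fold, adjusted p = 0.000523). Pcdhb7 fell by 0.98 ± 0.15 (SE, 1.97-fold, adjusted p = 0.000751) and Pcdhb4 fell by 0.86 ± 0.16 (SE, 1.81-fold, adjusted p = 0.00324). In null the differences of these 3 were -0.98, -0.83 and -0.73. The members are close in sequence and adjacent in the genome, so their probes may share signal and the 10 calls are not independent. 

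Regulators of G protein and MAP kinase signalling gave further falls. Of 22 Rgs genes 6 were lower and 1 higher, where 4.81% and 4.38% of all genes were. Rgs4 read 9.85, 9.90, 10.34 and 10.31 at 2 weeks and 8.66, 8.83, 8.82 and 9.34 at 4 months and fell by 1.18 ± 0.15 (SE, 2.27-fold, adjusted p = 0.000177), and Rgs2 fell by 0.77 ± 0.12 (SE, 1.71-fold, adjusted p = 0.00107), while Rgs6 rose by 0.62 ± 0.12 (SE, 1.54-fold, adjusted p = 0.00343). Of 24 Dusp genes, which encode phosphatases of MAP kinases, 4 were lower and none higher; Dusp6 fell by 1.02 ± 0.17 (SE, 2.03-fold, adjusted p = 0.00173) and Dusp5 fell by 0.85 ± 0.13 (SE, 1.8-fold, adjusted p = 0.000933). On the side of the rises were 4 of 17 Fbxw genes, substrate receptors of ubiquitin ligases, with Fbxw8 at 0.71 ± 0.11 (SE, adjusted p = 0.00124) and Fbxw7 at 0.56 ± 0.12 (SE, adjusted p = 0.00836), and 3 of 10 Osbpl genes, oxysterol-binding lipid carriers, with Osbpl6 at 0.71 ± 0.11 (SE, adjusted p = 0.000751).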
